A study of Mus musculus with 4 samples.

Results

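The mucus genes of gastric mucous neck cells were read as a set of 6 named genes, Muc6, Tff2, Gkn3, A4gnt, Agr2 and Aqp5, of 19938 genes that had a probe set annotated to 1 gene symbol. Each of the 6 had 1 such probe set, and all 6 were found. The material was RNA from the stomach of adult mice on a C57BL/6 background, read on Affymetrix Mouse Gene ST arrays. Cells had been lifted from sections one type at a time under a microscope with a laser (laser capture). There were 4 groups of 1 array each: zymogenic cells of MIST1 knockout mice, zymogenic cells of wild type mice, mucous neck cells of MIST1 knockout mice, and mucous neck cells of wild type mice, with the knockout called MIST1-null here. MIST1, encoded by Bhlha15, is a transcription factor of secretory cells, and zymogenic (chief) cells are the enzyme-storing cells at the base of the gland. RNA of each group was pooled over several dissections and mice to about 100 ng, out of 5 MIST1-null and 4 wild-type mice with 2 caps each. With 1 pooled array per group, no difference has a replicate check or a p-value. What is given for each gene is its array intensity, and the difference of 2 arrays on the log2 scale.

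Mucous neck cells sit in the middle of the corpus gland and secrete a gel that differs from the mucus of the gastric surface. Its mucin is MUC6, whose sugar chains are capped with alpha-linked N-acetylglucosamine by the enzyme A4GNT, and the trefoil peptide TFF2 is secreted with it and binds those sugars. The lectin GS-II, used to stain the sections, recognises terminal N-acetylglucosamine. Zymogenic cells were picked from below the GS-II signal, so the cell type differences of these genes, above all of A4gnt and Muc6, are not independent of how the cells were chosen. AGR2 is an endoplasmic reticulum enzyme needed to fold mucins, GKN3 is a small secreted gastrokine of mouse neck cells, and AQP5 is a water channel of exocrine glands. In cell pools of this kind, fewer mucous cells and less mucus RNA per cell cannot be told apart.

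The arrays' median intensities lay between 37.9 and 40.9, and single values between 0.86 and 14250.8. A gene counted as detectable in a comparison when its brighter array was at 43.7 or more, the median intensity of probe sets with 1 gene. No background was measured, so this is a convention. Bhlha15 read 22.0 in MIST1-null zymogenic, 149.8 in wild-type zymogenic, 20.2 in MIST1-null neck and 59.7 in wild-type neck cells, so both arrays labelled as knockout were under that level. Among cell type markers, the zymogenic enzyme Chia1 read 9022 and 8209 in MIST1-null and wild-type zymogenic cells, against 1494 and 1806 in the matching neck cells, and Cblif, gastric intrinsic factor, read 5029 and 4882, against 2120 and 2373. The pepsinogen gene Pgc read between 8672 and 10638 on all arrays, and Lipf and Cym of the same list were under the detectable level on all of them. Pga5, another pepsinogen gene of the list, ran the other way, with 20.4 and 31.0 in MIST1-null and wild-type zymogenic cells, against 1884 and 1350 in the matching neck cells. Zymogenic markers summed to 24779 and 23302 in MIST1-null and wild-type zymogenic cells, against 14229 and 14329 in the matching neck cells.

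The mucin, its capping enzyme and their partners had higher intensities in neck cells in both genotypes, and Aqp5 did not. Of the 6 genes, 5 were at least 2-fold lower in zymogenic than in neck cells of MIST1-null mice, and the same 5 were so in wild-type mice. Of all detectable genes, 4.80% were at least 2-fold lower in MIST1-null and 6.78% in wild-type mice. Of genes detectable in both genotypes, 2.03% were at least 2-fold lower in both. Aqp5 differed by 0.56 and 0.54 the other way. The median difference over the 6 genes, all of them detectable in both comparisons, was -3.94 in MIST1-null and -2.94 in wild-type mice, beside medians over all detectable genes of 0.048 and 0.025.

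Muc6 read 20.7 in MIST1-null zymogenic and 26.7 in wild-type zymogenic cells, against 2980.3 in MIST1-null neck and 2511 in wild-type neck cells. The gland mucin was thus detectable on both neck arrays and under the detectable level on both zymogenic arrays. Its zymogenic level was 0.695% of the neck level in MIST1-null and 1.06% in wild-type mice. The differences were -7.17 and -6.56, and no other detectable gene was as low in either comparison. Since the lower values lay under the detectable level, these sizes are not firm, and with a pseudocount of 32 added before the logarithm they were -5.84 and -5.44.

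A4gnt read 35.6 in MIST1-null zymogenic and 63.6 in wild-type zymogenic cells, against 536 and 378 in the matching neck cells. The capping enzyme was therefore detectable on the wild-type zymogenic array and not on the MIST1-null one. The differences between zymogenic and neck cells were -3.91 in MIST1-null and -2.57 in wild-type mice. Agr2 read 223 and 273 in MIST1-null and wild-type zymogenic cells, against 3472 and 2979 in the matching neck cells. It stayed well inside the detectable range on all 4 arrays, so its differences of -3.96 and -3.45 do not rest on values near the bottom of the scale. Gkn3 read 40.7 and 59.8 in MIST1-null and wild-type zymogenic cells, against 967 and 594 in the matching neck cells. The gastrokine differed by -4.57 in MIST1-null and -3.31 in wild-type mice, and it too was under the detectable level on the MIST1-null zymogenic array. With the pseudocount the differences were -3.78 and -2.77 for Gkn3 and -3.07 and -2.10 for A4gnt.

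**Figure D1:**
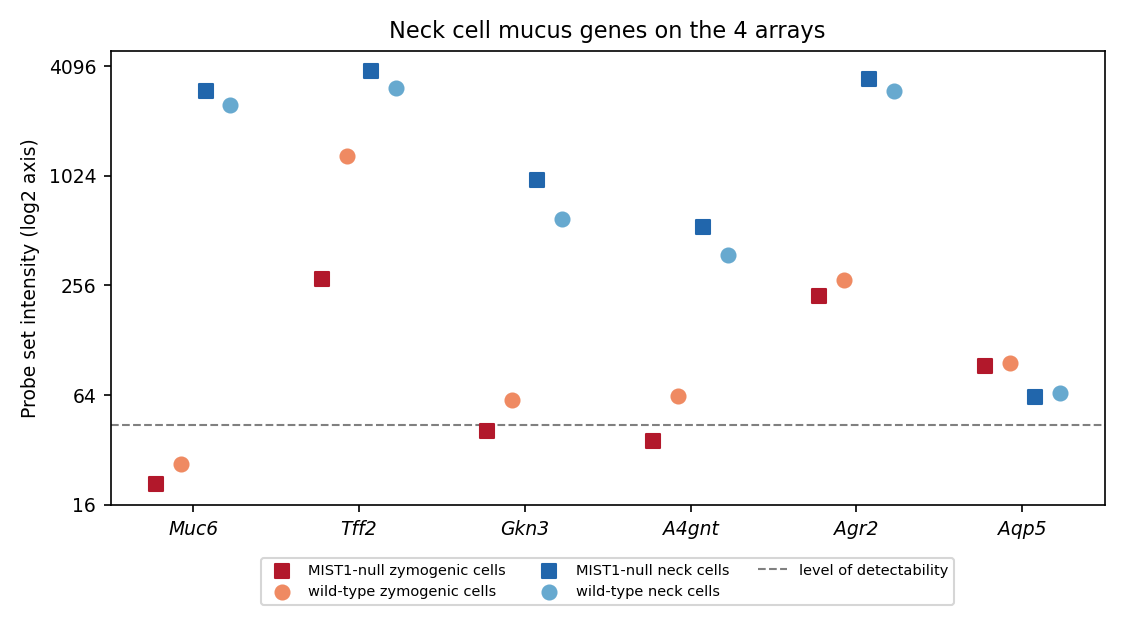
Probe set intensity (log2 axis) of the 6 neck cell mucus genes on each of the 4 arrays, 1 point per array, with zymogenic cells in red and neck cells in blue, squares for MIST1-null and circles for wild-type mice. The neck arrays lie far above the zymogenic arrays for Muc6, Gkn3, A4gnt and Agr2, Tff2 stays at 1320.4 in wild-type zymogenic cells, and Aqp5 lies between 62.5 and 95.5 on all arrays.

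Tff2 was the gene of this group whose cell type difference was least alike in the 2 genotypes. It read 277 in MIST1-null zymogenic and 1320.4 in wild-type zymogenic cells, against 3827 in MIST1-null neck and 3088 in wild-type neck cells. Both zymogenic arrays were below both neck arrays, but the wild-type zymogenic array kept 42.8% of the neck level and the MIST1-null zymogenic array 7.23%. The differences were -3.79 in MIST1-null and -1.23 in wild-type mice. The corresponding shares were 6.64% and 16.8% for A4gnt, 6.43% and 9.17% for Agr2, and 4.21% and 10.1% for Gkn3. On the wild-type zymogenic array the 5 neck-enriched genes therefore stood at unequal fractions of their neck level, from 1.06% for Muc6 to 42.8% for Tff2. Muc6 was under the detectable level there, and Gkn3 and A4gnt were near it, so their shares are not firm. All 4 arrays gave detectable Tff2, and with the pseudocount its differences were -3.64 and -1.21.

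Aqp5 read 92.0 in MIST1-null zymogenic and 95.5 in wild-type zymogenic cells, against 62.5 and 65.7 in the matching neck cells. The zymogenic arrays were slightly higher in both genotypes, by less than 2-fold. Of detectable genes, 1808 of 11322 in MIST1-null and 2288 of 11778 in wild-type mice had a difference at least as high, so the water channel did not stand out. By these values of 1 probe set, with background not measured, Aqp5 did not mark neck cells in this material. The label of neck cell mucus gene describes the other 5.

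To show the sequence around annotated starts of these genes, RefSeq promoter windows (build GRCm38.p6, 250 bases before to 50 after the start, gene strand, 5′ to 3′) were matched by symbol for 5 of the 6. Tff2 had no entry. Below are 3 neck-enriched genes and Aqp5, which was not neck-enriched. Agr2 was neck-enriched too and had a window, which is not printed. Capitals mark the E-box CANNTG, the class of site bound by MIST1 and its relatives, and GATAA or its reverse complement TTATC, the core site of GATA factors. Both strands were searched, and no E-box overlapped a GATAA match in these windows. Muc6 lies on the minus strand at chr7:141655344-141655643, Gkn3 on the minus strand at chr6:87388886-87389185, A4gnt on the plus strand at chr9:99612252-99612551, and Aqp5 on the plus strand at chr15:99590778-99591077. The A4gnt window lies inside the span annotated for that gene, around a start downstream of the outermost one, while the other windows, Agr2 included, are at the outermost start.
Muc6: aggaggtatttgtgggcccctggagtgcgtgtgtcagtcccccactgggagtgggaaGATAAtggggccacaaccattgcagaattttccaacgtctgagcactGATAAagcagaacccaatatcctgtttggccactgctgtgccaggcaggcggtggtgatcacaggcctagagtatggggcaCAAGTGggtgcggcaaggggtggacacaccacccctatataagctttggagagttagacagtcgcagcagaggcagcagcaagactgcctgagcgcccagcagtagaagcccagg
Gkn3: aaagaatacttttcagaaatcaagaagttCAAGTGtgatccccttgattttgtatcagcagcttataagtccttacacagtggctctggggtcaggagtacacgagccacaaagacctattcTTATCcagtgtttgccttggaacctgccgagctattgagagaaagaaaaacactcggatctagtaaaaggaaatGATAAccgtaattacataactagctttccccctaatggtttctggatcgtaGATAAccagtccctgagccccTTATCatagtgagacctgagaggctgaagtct
A4gnt: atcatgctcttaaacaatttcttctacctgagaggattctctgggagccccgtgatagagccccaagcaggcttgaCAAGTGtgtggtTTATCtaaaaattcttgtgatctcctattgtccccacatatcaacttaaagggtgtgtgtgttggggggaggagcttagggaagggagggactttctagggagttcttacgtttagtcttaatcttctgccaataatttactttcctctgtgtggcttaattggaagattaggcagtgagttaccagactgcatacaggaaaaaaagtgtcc
Aqp5: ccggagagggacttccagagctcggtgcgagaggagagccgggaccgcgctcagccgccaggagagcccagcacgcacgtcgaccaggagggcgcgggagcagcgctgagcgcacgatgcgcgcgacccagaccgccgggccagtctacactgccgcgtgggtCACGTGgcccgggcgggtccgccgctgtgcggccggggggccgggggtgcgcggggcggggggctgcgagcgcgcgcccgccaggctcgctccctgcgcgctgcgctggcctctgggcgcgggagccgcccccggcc

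Each of the 5 windows, Agr2 included, held 1 E-box, and 72.3% of 32851 promoter windows of the same length held at least 1. CATATG, an E-box form preferred by MIST1, was in 0 of the 5 and in 3.91% of all windows. The E-box of Muc6, Gkn3 and A4gnt had the same letters, CAAGTG, which 13.6% of all windows held on either strand. This form was singled out after the windows had been read. GATAA was found in the same 3 windows, with 2 matches in Muc6, 4 in Gkn3 and 1 in A4gnt, and in 25.4% of all windows. Agr2, which was also neck-enriched, and Aqp5 held no GATAA, and their E-boxes had other letters, CAATTG and CACGTG. The neck-enriched genes were thus not alike in these letters. GC content was 56.7% for Muc6, 42.7% for Gkn3, 43.7% for A4gnt and 47.3% for Agr2, against 79.7% for Aqp5 and a median of 52.7% over all windows. Letters in a window describe the sequence and not binding.

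Enzymes that build the sugar chains of mucins were neck-enriched with Muc6, but as a minority of their list. Of 44 measured O-glycan genes, 12 of 34 detectable ones were lower by 2-fold or more in zymogenic than in neck cells of MIST1-null mice and 2 were higher by as much. In wild-type mice 8 of 32 were lower and 0 higher. Among all detectable genes, 4.80% in MIST1-null and 6.78% in wild-type mice were lower by as much, and 4.90% and 6.27% higher. The median differences were -0.13 and -0.33. The 7 genes lower in both genotypes were Galnt4, Galnt6, Galnt7, Galnt12, Galntl6, Gcnt1 and Gcnt3. They were 22.6% of the 31 detectable in both, beside 2.03% of all genes detectable in both. With the pseudocount 9 were lower in MIST1-null and 6 in wild-type mice, beside 1.96% and 2.67% of all detectable genes. In both genotypes 5 were lower, since Galnt4 and Galnt6 no longer passed 2-fold in either. The GALNT enzymes attach the sugar that starts an O-glycan, although Galntl6 is an atypical member of that family.

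Gcnt1 and Gcnt3 encode the enzymes that branch the chain on which A4GNT places its cap. Gcnt3 read 20.0 and 26.0 in MIST1-null and wild-type zymogenic cells, against 329 and 207 in the matching neck cells. Its differences were -4.04 and -2.99. Gcnt1 read 20.6 and 19.8 in MIST1-null and wild-type zymogenic cells, against 249 and 213 in the matching neck cells, which gave -3.60 and -3.42. Galntl6 read 7.14 and 6.50 in MIST1-null and wild-type zymogenic cells, against 239.6 and 180.4 in the matching neck cells, and differed by -5.07 and -4.79. Galntl6 had 3 probe sets, of which these values are the brightest, and the others were not compared. These 3 genes were under the detectable level in zymogenic cells, so their sizes too are not firm. With the pseudocount they were -2.80 and -2.04 for Gcnt3, -2.42 and -2.24 for Gcnt1, and -2.79 and -2.46 for Galntl6. Galnt7, detectable on all arrays, differed by -2.26 and -1.17. C1galt1, which extends the first sugar, differed by -1.42 and -0.99, while C1galt1c1, its chaperone, differed by 0.22 and 0.02. The sialyltransferase gene St3gal6 differed by 1.13 and 0.98, towards zymogenic cells.

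Genes that supply N-acetylglucosamine were divided too. Among all detectable genes, 4.80% in MIST1-null and 6.78% in wild-type mice were lower by 2-fold or more in zymogenic cells. Of 10 detectable genes of sugar nucleotide supply, 3 were lower by as much in zymogenic cells of MIST1-null mice. The same 3 were so in wild-type mice, and 0 were 2-fold higher in either. They were Gfpt1, the entry enzyme of the hexosamine pathway, Uap1, which makes the activated sugar, and Slc35a3, which carries it into the Golgi. Gfpt1 read 314 and 285 in MIST1-null and wild-type zymogenic cells, against 1069 and 825 in the matching neck cells. Its differences were -1.77 and -1.54, those of Uap1 -1.73 and -1.31, and those of Slc35a3 -1.65 and -1.93. Gnpnat1 and Pgm3, also of the hexosamine pathway, were not 2-fold apart in either genotype. They differed by -0.39 and -0.80 in MIST1-null and by -0.05 and 0.36 in wild-type mice. The sialic acid enzymes Gne, Nans and Cmas were not 2-fold apart either. They differed by -0.94, 0.53 and 0.20 in MIST1-null and by 0.08, 0.95 and 0.70 in wild-type mice.

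Among regulators known from mucous secretory cells, 5 of 13 detectable genes were at least 2-fold lower in MIST1-null zymogenic than neck cells. In wild-type mice 4 of 14 were so. The shares of all detectable genes were 4.80% in MIST1-null and 6.78% in wild-type mice. The medians of the regulators were -0.50 and -0.51. Creb3l4, a transcription factor held in the endoplasmic reticulum membrane, read 12.3 and 10.2 in MIST1-null and wild-type zymogenic cells, against 317 and 267 in the matching neck cells. Ern2, the stress sensor of mucous epithelia, read 26.9 and 21.9 in MIST1-null and wild-type zymogenic cells, against 277 and 228 in the matching neck cells. These differences were alike in both genotypes, at -4.69 and -4.72 for Creb3l4 and at -3.36 and -3.38 for Ern2, with zymogenic values under the detectable level. With the pseudocount they were -2.98 and -2.83 for Creb3l4 and -2.39 and -2.27 for Ern2. Sox9 differed by -1.60 and -1.05. Gata6 differed by -0.50 in MIST1-null and -1.31 in wild-type mice, the latter -1.17 with the pseudocount. With the pseudocount 3 regulators were lower by 2-fold in each genotype, without Sox9 (-0.99) in wild-type and without Ehf and Creb3l1 in MIST1-null mice. The shares of all detectable genes were then 1.96% in MIST1-null and 2.67% in wild-type mice. Spdef, the goblet cell regulator, differed by -0.61 and -0.58, and Xbp1, which serves secretory cells in general, by 0.63 and 0.47.

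**Figure D2:**
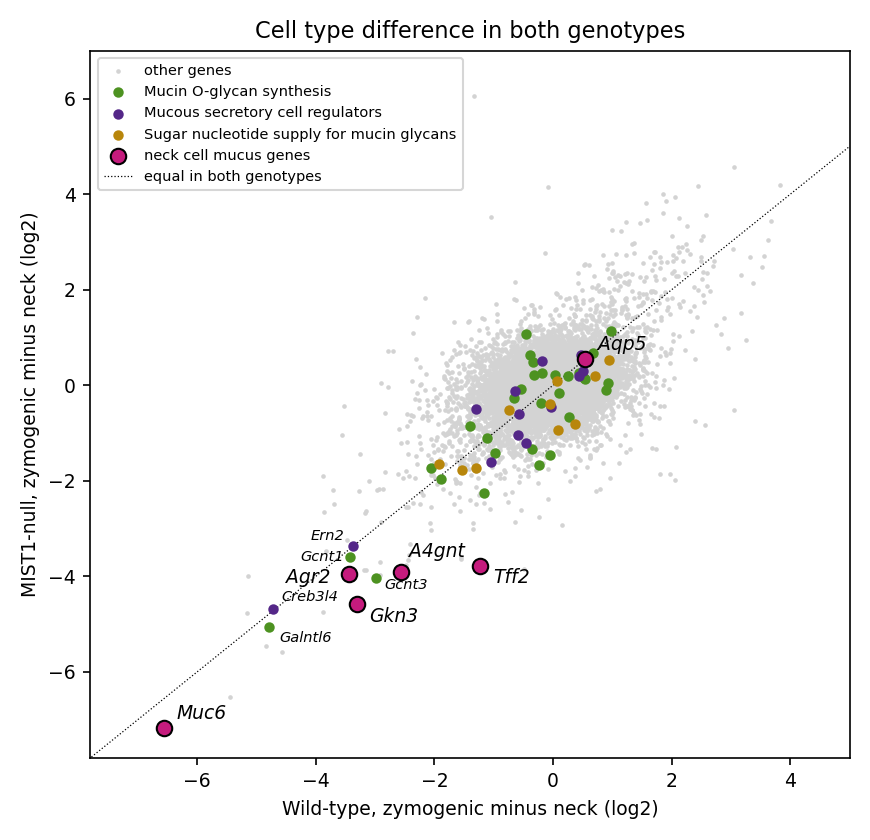
Each point is a gene detectable in both genotypes, with its zymogenic minus neck difference (log2) in wild-type mice on the horizontal axis and in MIST1-null mice on the vertical axis. Muc6 lies at the lower left end, Agr2 and Gkn3 lie near Gcnt1, Gcnt3 and Ern2, and Tff2 lies below the line of equal differences at -1.23 and -3.79.

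**Figure D3:**
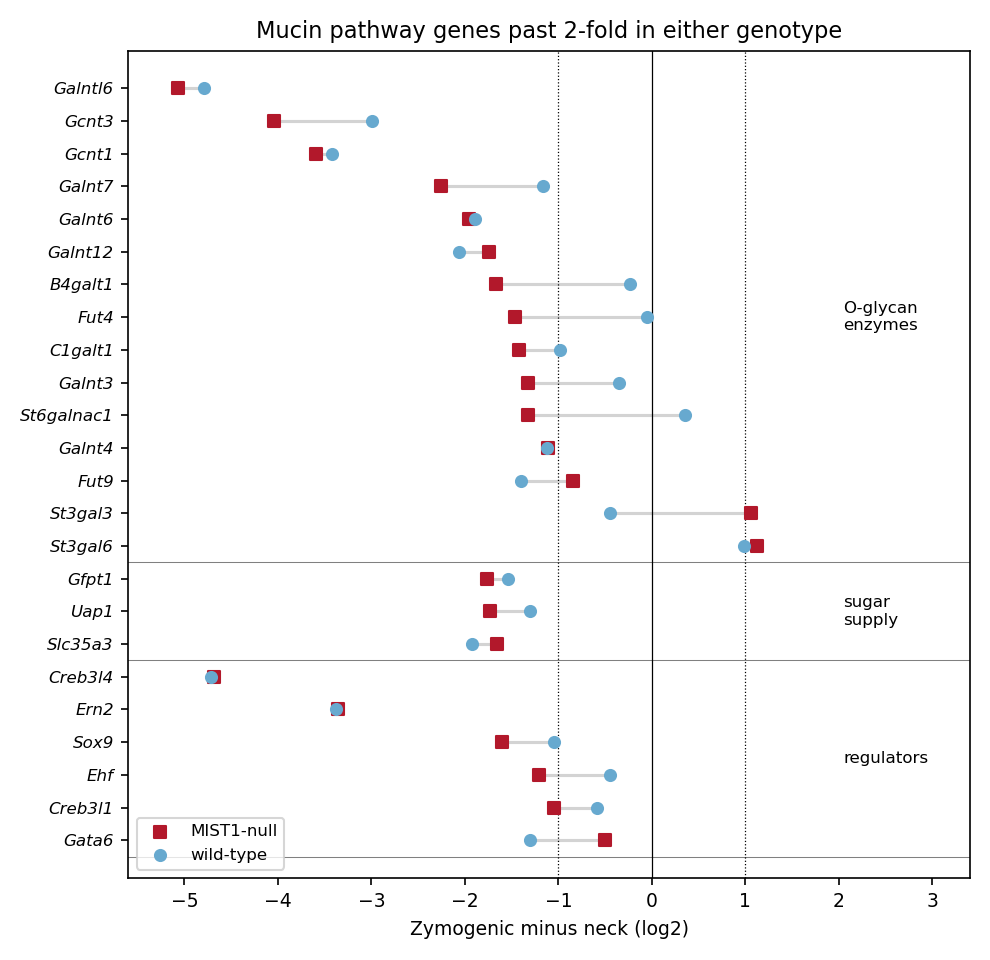
Zymogenic minus neck difference (log2) of the 15 O-glycan, 3 sugar supply and 6 regulator genes that passed 2-fold in either genotype, with red squares for MIST1-null and blue circles for wild-type mice. Most lie left of 0, Galntl6, Creb3l4, Gcnt1 and Ern2 have nearly the same value in both genotypes, and B4galt1 and Fut4 are among those past 2-fold in MIST1-null but not in wild-type mice.

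Relatives of Muc6, Tff2, Gkn3 and Agr2 were not lower in zymogenic cells by 2-fold in either genotype. Of 11 other mucin genes measured, 4 were detectable in MIST1-null and 3 in wild-type mice between the cell types, and 0 were 2-fold apart in either. Muc5ac, the mucin of the gastric surface, read 69.8 and 65.5 in MIST1-null and wild-type zymogenic cells, against 53.2 and 51.4 in the matching neck cells. Tff1, the surface cell trefoil peptide, read 610.4 and 455 in MIST1-null and wild-type zymogenic cells, against 307 and 294 in the matching neck cells. It thus differed by 0.99 and 0.63, the other way from Tff2, while Tff3 differed by -0.09 and -0.02. The gastrokines of surface cells went the same way as Tff1, with Gkn1 at 0.79 and 0.46 and Gkn2 at 0.83 and 0.87.

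Agr3, the closest relative of Agr2, was under the detectable level on all arrays. Of 6 detectable AGR and PDI relatives, 0 in MIST1-null and 1 in wild-type mice passed 2-fold between the cell types. That gene was P4hb, a general folding enzyme, which read 423 and 582 in MIST1-null and wild-type zymogenic cells, against 297 and 289.8 in the matching neck cells, opposite in direction to Agr2. Its wild-type difference was under 2-fold with the pseudocount, at 0.93. Other aquaporins mostly lay the same way as Aqp5, with 5 of 5 detectable genes above 0 in MIST1-null and 4 of 5 in wild-type mice, and medians of 0.61 and 0.46. Aqp4 and Aqp12 were higher by 2-fold or more in MIST1-null zymogenic cells, at 1.13 and 1.00, and 0 passed 2-fold in wild-type mice. Their MIST1-null neck values, 40.6 and 25.8, were under the detectable level, and with the pseudocount both differences were under 2-fold, at 0.74 and 0.53. Among all detectable genes, the share higher in zymogenic cells by 2-fold or more was 4.90% in MIST1-null and 6.27% in wild-type mice.

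Markers of other cell types differed along with the mucus genes. Of all detectable genes, 53.9% in MIST1-null and 51.6% in wild-type mice were above 0, and 46.1% and 48.4% below. Markers of fibroblasts and smooth muscle summed to intensities of 1488 and 1357 in MIST1-null and wild-type zymogenic cells, against 382 and 533 in the matching neck cells, with 8 of 8 detectable markers above 0 in both genotypes. Endocrine markers summed to 13052 and 9019 in MIST1-null and wild-type zymogenic cells, against 3813 and 5898, with 7 of 8 and 8 of 8 above 0. Immune markers summed to 433 and 512 in MIST1-null and wild-type zymogenic cells, against 176 and 327, with 5 of 5 and 5 of 6 above 0. Of these lists Des, Tagln, Cd52 and Laptm5 were under the detectable level on all arrays. Parietal markers summed to 9777 and 5629 in MIST1-null and wild-type zymogenic cells, against 11577 and 10591, and 8 of 10 and 9 of 10 were below 0. Proliferation markers summed to 279 and 362 in MIST1-null and wild-type zymogenic cells, against 1143 and 893, with 7 of 7 below 0 in MIST1-null mice. In wild-type mice 4 of 6 were below 0, beside 48.4% of all detectable genes, with a median of -1.17. Cdk1 and Mcm7 were above, at 0.58 and 0.36. Surface mucous markers, which are the relatives Tff1, Gkn1, Gkn2 and Muc5ac given above, summed to 3464 and 3347 in MIST1-null and wild-type zymogenic cells, against 1944 and 2108. The part of these cells in the differences above was not tested.

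In neck cells, the mucus genes differed little between genotypes and mostly lay slightly higher in MIST1-null mice. Of the 6 genes, 5 were above 0 and Aqp5 was below, where 50.2% of all detectable genes were above 0 and 49.8% below. None of the 6 was 2-fold apart, where 1.89% of detectable genes were higher by 2-fold or more and 2.40% lower. From the intensities given above, the differences of MIST1-null minus wild-type neck cells were 0.70 for Gkn3, 0.50 for A4gnt, 0.31 for Tff2, 0.25 for Muc6, 0.22 for Agr2 and -0.07 for Aqp5. Gkn3 stood highest, with 608 of 10966 detectable genes at least as high, and Agr2 lowest of the 5, with 3171. The median over the 6 was 0.28, beside 0.0029 over all genes and a spread of 0.48 (SD over genes), so 4 of the 6 differences lay inside the spread of all genes between the 2 neck arrays.

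The sugar supply genes lay the same way in neck cells. Of 10 detectable genes 8 were above 0, where 50.2% of all detectable genes were above 0 and 49.8% below. The 10 had a median of 0.30 and none passed 2-fold. Pgm3, a hexosamine pathway enzyme, read 101.4 in MIST1-null and 54.4 in wild-type neck cells, a difference of 0.90, Slc35a3 differed by 0.75 and Uap1 by 0.71. Of 33 detectable O-glycan genes, 20 were above 0, beside 50.2% of all detectable genes. Only 1 was higher by 2-fold or more, Galnt18, beside 1.89% of all detectable genes. Galnt18 read 48.2 in MIST1-null and 14.3 in wild-type neck cells and was under 2-fold with the pseudocount, at 0.79. Regulators had a median of 0.11, with Sox9 at 0.62 and none past 2-fold. Proliferation markers were above 0 in 7 of 7, with a median of 0.59, fibroblast and smooth muscle markers were below 0 in 7 of 7, with a median of -0.56, and 5 of 6 endocrine markers were below 0. Their part in the mucus gene values was not tested.

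In zymogenic cells Tff2 lay lower in MIST1-null mice, and the other mucus genes differed between genotypes by less than 2-fold. Tff2 differed by -2.25, from the 277 and 1320.4 given above, a 4.77-fold lower intensity in MIST1-null cells. Of 11826 detectable genes, 44 had a difference at least as low, Tff2 included, and 8 with the pseudocount, which left Tff2 at -2.13. It was the sole gene of the 6 past 2-fold, where 5.23% of detectable genes were lower by 2-fold or more and 5.15% higher. A4gnt differed by -0.84, Gkn3 by -0.56, Agr2 by -0.29 and Aqp5 by -0.05. The MIST1-null values of A4gnt and Gkn3 were under the detectable level, and with the pseudocount their differences were -0.50 and -0.34. Muc6, at -0.37, was under the detectable level on both arrays. All 5 detectable genes were below 0, Aqp5 barely so, where 47.1% of detectable genes were below and 52.9% above. The median over the 5 detectable genes was -0.56, beside 0.042 over all genes and a spread of 0.65 (SD over genes), and over all 6 it was -0.46. The differences of Gkn3, Agr2 and Aqp5 lay inside that spread.

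The trefoil and gastrokine relatives did not follow Tff2 in zymogenic cells. Tff1 differed by 0.43, Tff3 by -0.14, Gkn1 by -0.05 and Gkn2 by -0.0034 in MIST1-null minus wild-type cells. Of 29 detectable O-glycan genes, Galnt18 and St3gal3 were higher by 2-fold or more, at 1.24 and 1.16, and B4galt1, a galactosyltransferase, was lower, at -1.14. Slc35a3 differed by 1.02, and Gne read 49.5 in MIST1-null and 99.4 in wild-type cells, and no regulator passed 2-fold. With the pseudocount none of these 5 genes was 2-fold apart, at 0.68 for Galnt18, 0.70 for St3gal3, -0.86 for B4galt1, 0.88 for Slc35a3 and -0.69 for Gne, and the wild-type values of Galnt18 and St3gal3 were under the detectable level. The MIST1-null zymogenic array also held more parietal signal than the wild-type one, with 8 of 9 detectable parietal markers above 0 and a median of 0.80. Surface mucous markers had a median of 0.04 and zymogenic markers of 0.07. The part of these cells in the Tff2 value was not tested.

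**Figure D4:**
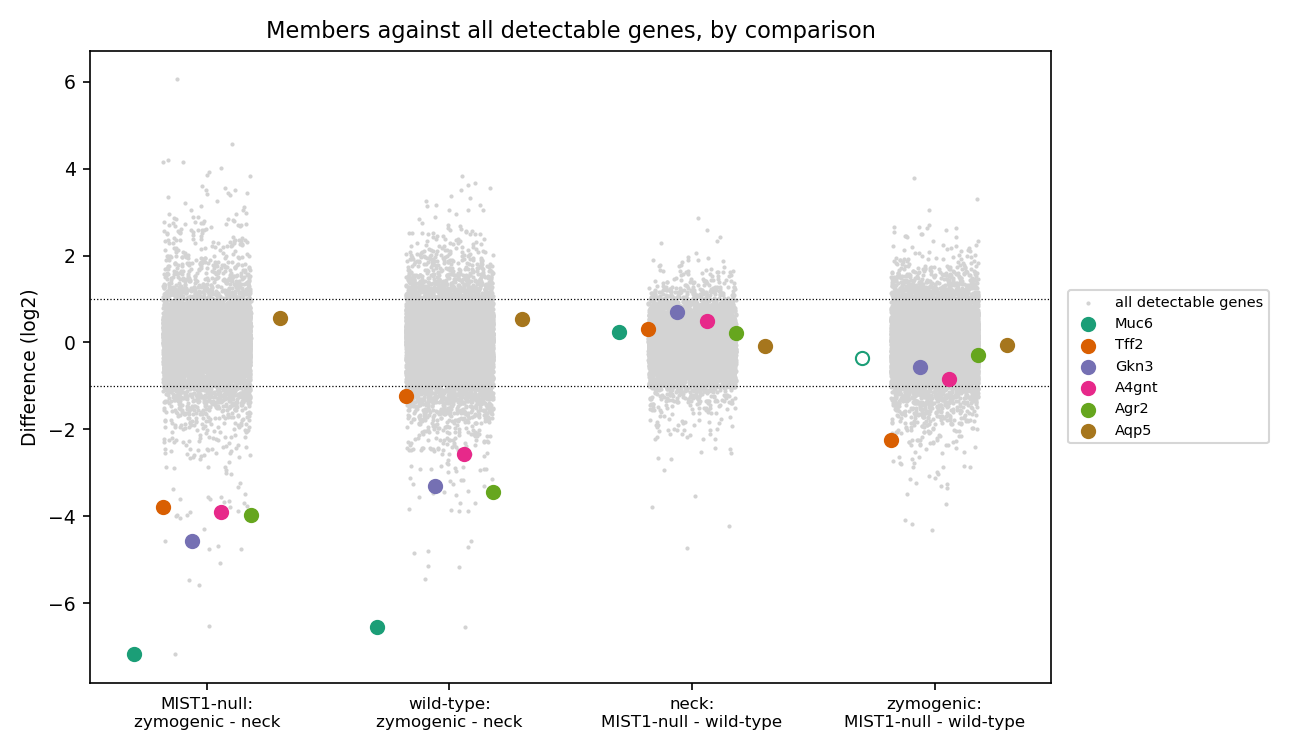
Difference (log2) of the 6 genes in each of the 4 comparisons, over grey points for all detectable genes, with dotted lines at 2-fold and an open circle where a gene was under the detectable level on both arrays. Muc6 is the lowest gene in both cell type comparisons, none of the 6 passes 2-fold in neck cells, and Tff2 alone does so between genotypes in zymogenic cells, at -2.25.

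Setting the cell types side by side, the 5 neck-enriched genes were higher in MIST1-null than wild-type neck cells and lower in MIST1-null than wild-type zymogenic cells. These values come from separate pairs of arrays. Of 9857 genes detectable in both genotype comparisons, 20.1% had that pair of signs. Muc6 is not one of these, since it was not detectable in zymogenic cells, so the like count is 4 of 5, Aqp5 being the other. The genotype difference of zymogenic minus that of neck cells was -2.56 for Tff2, -1.34 for A4gnt, -1.26 for Gkn3, -0.61 for Muc6, -0.51 for Agr2 and 0.02 for Aqp5. For Tff2, 28 of 12935 genes detectable on any array were at least as low. For A4gnt it was 379 and for Gkn3 472, and 6.93% of all genes lay at -1 or lower. A4gnt and Gkn3 were under the detectable level on the MIST1-null zymogenic array, and with the pseudocount they were at -0.97 and -1.01. The median over the 6 was -0.94, beside 0.036 over all genes. With 1 array per group these are values without an error.

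**Figure D5:**
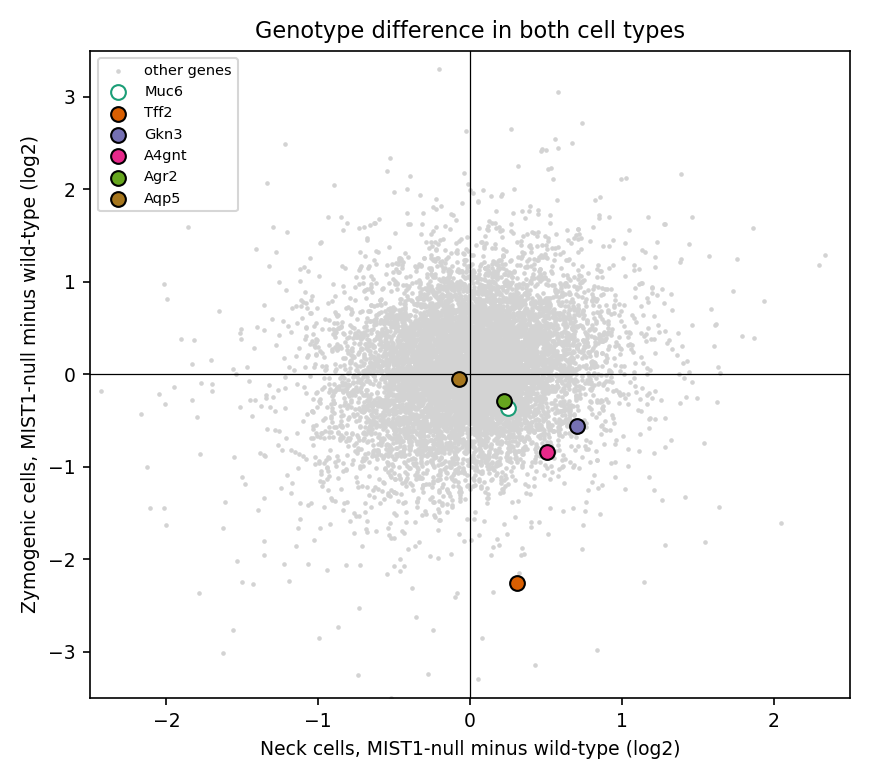
Difference of MIST1-null minus wild-type (log2) in neck cells on the horizontal axis and in zymogenic cells on the vertical axis, for genes detectable in both, with 13 genes outside the axes and an open circle for Muc6, which was not detectable in zymogenic cells. Of the 6, 5 genes lie at the lower right, Tff2 lowest at 0.31 and -2.25, and Aqp5 lies next to the origin at -0.07 and -0.05.

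Over the 4 arrays, other genes came close to the profiles of the 6. Closeness was the Euclidean distance between log2 profiles, each centred on its own mean, among 6214 genes that reached the 75th percentile of intensity on some array. Agr2 was among the 3 nearest genes of Gkn3, at 0.46, beside Gcnt3 at 0.45 and Cfap69 at 0.53. The nearest to Agr2 were Zfp36l2 (0.23), Gcnt1 (0.31) and Gcnt3 (0.38), and to A4gnt they were Erlin1 (0.20), Slc9b2 (0.23) and Zfp36l2 (0.42). Erlin1 read 129.9 and 225 in MIST1-null and wild-type zymogenic cells, against 1643 and 1218 in the matching neck cells. It thus had the neck-enriched profile at intensities well above the detectable level on every array. Gcnt1 and Gcnt3, the branching enzymes, thus appeared among the nearest profiles of Agr2 or Gkn3. Gcnt1, Gcnt3, Cfap69 and Zfp36l2 were under the detectable level on both zymogenic arrays, so their distances are not firm.

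Profiles near Muc6 lay further off. Its nearest gene was Pga5, a pepsinogen gene, at a distance of 0.91, the zymogenic marker that was lower in zymogenic cells. The next were Plk1 at 1.73 and Oit1 at 1.81. Muc6, Pga5, Plk1 and Oit1 were all under the detectable level on both zymogenic arrays, so these distances are not firm. The nearest to Tff2 were Cgref1 at 0.57, Gsdma2 at 0.80 and Stxbp6 at 0.83. Cgref1 read 34.5 in MIST1-null zymogenic and 114.3 in wild-type zymogenic cells, against 277 and 292 in the matching neck cells, so it too was lowest on the MIST1-null zymogenic array. Among the 6 themselves, Tff2 was nearest to A4gnt, at 1.25, and Muc6 to Gkn3, at 2.94. Aqp5 had Adk at 0.03, Tmem201 and Tmem176b at 0.05.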

How the data were processed

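The authors deposited an intensity per probe set, not logged, for which the series design text names dChip. The sources used here do not give how background was corrected, probes summarised and arrays scaled, and no detection calls were used, so signal over background is unknown. Of 35512 probe sets, the platform annotation gave 1 symbol for 21789, several for 1621 and no entry for 12102. Of the first kind, 21698 matched RefSeq genes (GRCm38.p6) by Entrez identifier, with 0 symbols changed. A gene with several probe sets took the brightest, a case met by 999 of 19938 genes. Values were floored at an intensity of 1 and taken as log2, and differences are zymogenic minus neck and MIST1-null minus wild-type. Genes past 2-fold were counted among those detectable (43.7, or 80.9 for the 75th percentile). The code was tested on simulated data. Alternatives were a pseudocount of 32, quantile, median and cyclic loess scaling, no filter or a 75th percentile filter on low values, and the mean of probe sets. Software was Python 3.11.15 (numpy 2.4.6, pandas 2.3.3) and R 4.3.3 with limma 3.58.1 for scaling. Named genes were the 6 members, up to 4 genes per list and comparison with the largest differences past 2-fold, family relatives of members, and the 3 nearest profiles. Further list genes named beside these (Galnt4, C1galt1, C1galt1c1, St3gal6, Fut4, Pgm3, Nans, Cmas, Spdef, Xbp1, Zg16, Clca1, Pigr, the markers, and Gne, Sox9, Uap1 and Slc35a3 where under 2-fold) were chosen after their values were seen. Gnpnat1 was also named after its values were seen. The members and lists were chosen with earlier results of these data known. The number of arrays limits the precision.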

Additional observations from a re-analysis of the deposited data

Results flagged for a closer look

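For 5 genes, 1 array pair moved up and the other down between genotypes: each was higher in MIST1-null than wild-type neck cells and lower in MIST1-null than wild-type zymogenic cells. The genotype difference in zymogenic cells minus that in neck cells was -2.56 for Tff2, -1.34 for A4gnt, -1.26 for Gkn3, -0.61 for Muc6 and -0.51 for Agr2 (log2). With the pseudocount it was -0.97 for A4gnt and -1.01 for Gkn3. With 1 array per group the difference between the cell types was not tested. The pair of signs was also found in 20.1% of 9857 genes detectable in both comparisons. Muc6 was under the detectable level on both zymogenic arrays and is not one of these, so the like count of the set is 4 of 5.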

How the results depend on the processing

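Under 7 alternatives, the number of the 6 genes at least 2-fold lower in zymogenic than neck cells was 5 in MIST1-null and 5 in wild-type mice each time. The number past 2-fold between genotypes was 1 in zymogenic and 0 in neck cells each time. Of 285 recomputed values, 281 kept their direction and their side of 2-fold. The exceptions were the genotype difference of the cell type difference of A4gnt, at -0.97 with the pseudocount against -1.34, and that of Aqp5, near 0 throughout, at -0.0594 with quantile scaling, -0.0274 with median centring and -0.0538 with cyclic loess against 0.02. The cause was not tested. Of the 285 values, 41 came from the mean of probe sets, which could not change a gene with 1 probe set. The setting with no filter gave 42 and the 75th percentile filter 38. These filters leave a gene's own difference as it was and change only which genes are counted. The median of the genes between genotypes in zymogenic cells ranged from -0.65 to -0.29. Tff2 there ranged from -2.35 to -2.13. No paired analysis was possible because each group is 1 array and the labels give no replicate numbers, and no array could be left out. Muc6, Gkn3 and A4gnt read near or under the detectable level in zymogenic cells, which limits how firmly the size of their differences is known.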

Other observations

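Proteins of the mucus layer other than mucins showed little in these cells. Of 5 measured, Zg16 and Clca1 were under the detectable level on all 4 arrays. Dmbt1, a scavenger receptor secreted by mucosal epithelia, read 60.9 in MIST1-null zymogenic and 22.2 in wild-type zymogenic cells, and 65.5 in MIST1-null neck and 41.8 in wild-type neck cells, so it was higher in MIST1-null cells of both kinds, by 1.46 and 0.65 on the log2 scale. Pigr, the receptor that carries antibodies into mucus, read 49.1 in MIST1-null zymogenic and 28.1 in wild-type zymogenic cells, but 41.5 in MIST1-null neck and 54.3 in wild-type neck cells. Itln1, a lectin, read 41.2 in MIST1-null zymogenic and 26.6 in wild-type zymogenic cells, against 45.1 in MIST1-null neck and 61.01 in wild-type neck cells, which gave -0.13 and -1.20. With the pseudocount the wild-type difference of Itln1 and the zymogenic difference of Dmbt1 were under 2-fold, at -0.67 and 0.78. All of these values lay between 22.2 and 65.5, around the detectable level of 43.7.

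The 4 detectable other mucin genes were above 0 in zymogenic cells, MIST1-null minus wild-type, as were 52.9% of all detectable genes. Their median was 0.42 and none passed 2-fold. Muc6 was under the detectable level on both arrays, so it is not set against them. They were Muc1 at 0.27, Muc4 at 0.57, Muc5ac at 0.09 and Muc19 at 0.62. Muc1, a membrane mucin, read 436.0 in MIST1-null and 363 in wild-type zymogenic cells, and Muc4 read 83.2 in MIST1-null and 56.3 in wild-type zymogenic cells.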
